A study of Homo sapiens with 24 samples.

Results

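Cytokines and chemokines are the small secreted proteins through which an epithelium calls in immune cells or speaks to its neighbours, and 10 of their genes were followed here in prostate epithelial cells given the hormonal form of vitamin D. The genes were IL6 and LIF, TSLP, the chemokines CXCL1, CXCL2, CXCL3, CXCL8, CXCL14 and CXCL16, and CCL20. The 10 genes were chosen with earlier results of these data known. Every probe set that the platform annotation ties to only 1 of these symbols was then taken, whatever its values, which gave 15 probe sets. These are 10 of the 19775 genes with a probe set of their own. Only 7 of the 10 genes, against 12010 of all genes, had a probe set among the 26000 that were tested. The other 3, CXCL1, CCL20 and LIF, did not reach the value asked for, which was 3.20 on the log2 scale in at least 3 arrays of 1 group.

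The cells were RWPE1, an immortalized, non-tumorigenic line of human prostate epithelium. The treatment was 1,25(OH)2D at 100 nM, and the vehicle of the control cultures was ethanol at 0.1%. Cultures were harvested 6, 24 and 48 h later. The 6 groups were 1,25(OH)2D 6 h, vehicle 6 h, 1,25(OH)2D 24 h, vehicle 24 h, 1,25(OH)2D 48 h and vehicle 48 h, with 4 samples each. All were of the same line, and fresh medium was given after the first 24 h to the 48 h cultures of both treatments. Each of the 24 samples was put on its own Affymetrix human whole-genome array. The samples are labelled biological replicates, but nothing in the labels says whether the cultures were started separately, so the p-values measure the spread between these samples. Since RNA of whole cultures was measured, fewer cells that express a gene and less RNA per cell cannot be told apart.

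Most of the spread within groups lay in 1 direction: with group means taken off, 71.9% of the variance fell on the leading principal component and 6.82% on the next one. The 4 arrays that stood more than 0.3 from their group on it were 1,25(OH)2D replicates 1 and 4 at 24 h, vehicle replicate 1 at 24 h and vehicle replicate 1 at 6 h. The mean SD of a tested probe set was 0.399 in 1,25(OH)2D and 0.253 in vehicle at 24 h, but 0.161 in 1,25(OH)2D and 0.119 in vehicle at 48 h, so changes at 24 h had to be larger to pass. CYP24A1, the enzyme that breaks down 1,25(OH)2D and a known target of its receptor, was higher with 1,25(OH)2D at each time, by 10.08 (SE 0.142), 6.10 (SE 0.421) and 5.99 (SE 0.214) on the log2 scale at 6, 24 and 48 h. The basal keratins KRT5 and KRT14, which mark this kind of epithelium, averaged between 15.30 and 16.18 in all 6 groups. The leukocyte marker PTPRC averaged 3.33 to 3.44. Among endothelial markers VWF averaged 2.36 to 2.41 but KDR 3.07 to 5.25, and among fibroblast markers COL1A2, COL3A1 and DCN were below or near the filter value but COL1A1 averaged 9.58 to 10.18. KLK3, an androgen-driven luminal marker, averaged between 3.80 and 4.18.

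The genes differ in what they do. CXCL14 is made by many resting epithelia, is often lost in carcinomas, and attracts monocytes, dendritic cells and natural killer cells. IL6 and LIF signal through the shared receptor chain gp130, which IL6ST encodes, and switch on the transcription factor STAT3. TSLP is an alarm signal of barrier epithelia that acts on dendritic cells through a receptor made of CRLF2 and IL7R. CXCL1, CXCL2, CXCL3 and CXCL8 draw neutrophils through CXCR1 and CXCR2, CCL20 draws dendritic and T cells through CCR6, and CXCL16 is a membrane-bound chemokine that ADAM10 releases and CXCR6 binds. Many of these genes are switched on by the transcription factors NF-kB and AP-1, while the vitamin D receptor binds, together with a retinoid X receptor, paired half-sites 3 bases apart that are called a DR3 element.

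The upstream sequence of each gene was looked up in RefSeq (build GRCh38.p14) as the 250 bases before the annotated start. Of the 10 genes, 8 had an entry, in 10 windows, since TSLP has 3 annotated starts. CXCL16 and LIF were not among them. Each window was searched on both strands for the NF-kB consensus, for the AP-1 motif TGANTCA and for the DR3 consensus of the vitamin D receptor. The IL6 window (chr7:22726950-22727199, plus strand) and the CXCL14 window (chr5:135578992-135579241, minus strand) are shown whole, because these are the genes whose values fell at more than 1 time. Capitals mark the NF-kB match in IL6 and the AP-1 match in CXCL14.
IL6: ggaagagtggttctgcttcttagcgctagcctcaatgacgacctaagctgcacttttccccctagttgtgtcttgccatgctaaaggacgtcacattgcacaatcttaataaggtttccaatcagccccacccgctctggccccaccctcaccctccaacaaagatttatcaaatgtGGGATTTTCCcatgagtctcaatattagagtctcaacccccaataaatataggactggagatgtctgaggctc
CXCL14: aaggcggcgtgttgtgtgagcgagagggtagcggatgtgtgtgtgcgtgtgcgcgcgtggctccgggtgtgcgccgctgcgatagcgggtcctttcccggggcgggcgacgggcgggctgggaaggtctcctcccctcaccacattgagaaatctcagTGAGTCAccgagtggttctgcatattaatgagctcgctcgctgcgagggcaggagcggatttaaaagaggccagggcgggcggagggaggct

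The NF-kB consensus was found upstream of 6 of the 8 genes: IL6, CXCL1, CXCL2, CXCL3, CCL20 and, in 1 of its 3 windows, TSLP. Of all 27305 genes with a window, 6.28% held it. The AP-1 motif was found in 2, CXCL14 and CXCL8, against 8.06% of all genes, and the DR3 consensus in 0 of the 8, against 0.0732%. The match in IL6 lay 73 to 64 bases before the start, and those of CXCL1, CXCL2, CXCL3 and CCL20 lay at nearly the same distance. A match is a description of the letters and not a binding site. Nor does a missing match show that a site is absent. The CXCL8 window, for example, holds tggaatttcc, which departs from the NF-kB consensus only in its first base. The stretches below show the matches in capitals with 15 bases on either side, for the neutrophil chemokines, CCL20 and TSLP, which compares the 3 neighbouring chemokine genes with each other (CXCL1 chr4:73869299-73869339, plus strand; CXCL2 chr4:74099248-74099288, minus strand; CXCL3 chr4:74038743-74038783, minus strand) and with CXCL8 (chr4:73740417-73740453, plus strand), CCL20 (chr2:227813748-227813787, plus strand) and TSLP (chr5:111071507-111071546, plus strand).
CXCL1: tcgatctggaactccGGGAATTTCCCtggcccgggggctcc
CXCL2: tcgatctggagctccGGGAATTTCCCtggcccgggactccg
CXCL3: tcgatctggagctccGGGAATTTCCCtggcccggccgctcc
CXCL8: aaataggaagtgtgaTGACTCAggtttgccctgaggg
CCL20: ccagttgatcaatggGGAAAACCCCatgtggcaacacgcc
TSLP: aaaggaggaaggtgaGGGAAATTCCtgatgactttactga

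With 1,25(OH)2D, TSLP rose and IL6 fell at 6 h, CXCL14 fell at 24 h, and CXCL14, IL6 and CXCL2 fell at 48 h (limma, adjusted p under 0.05). That was 2 of 10 genes at 6 h, where 2.69% of all tested probe sets were called. It was 1 of 10 at 24 h, where 0.354% were called, and 3 of 10 at 48 h, where 9.63% were called. The 3 genes that were not tested could not be called. Since the genes were chosen with earlier results known, the counts and shares are not a blind comparison. CXCL3, CXCL8 and CXCL16 were called at 0 of the 3 times. At an unadjusted p under 0.05, 5, 2 and 4 of the 7 tested genes passed at 6, 24 and 48 h, where 9.49%, 8.58% and 22.9% of all tested probe sets passed. SAM, the test of the study's methods, run here at a 5% false discovery rate, called IL6, TSLP and CXCL16 at 6 h, IL6 and CXCL14 at 24 h, and IL6, TSLP, CXCL14 and CXCL2 at 48 h. Over all tested probe sets SAM called 6.37%, 5.79% and 13.7% at these times.

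**Figure D1:**
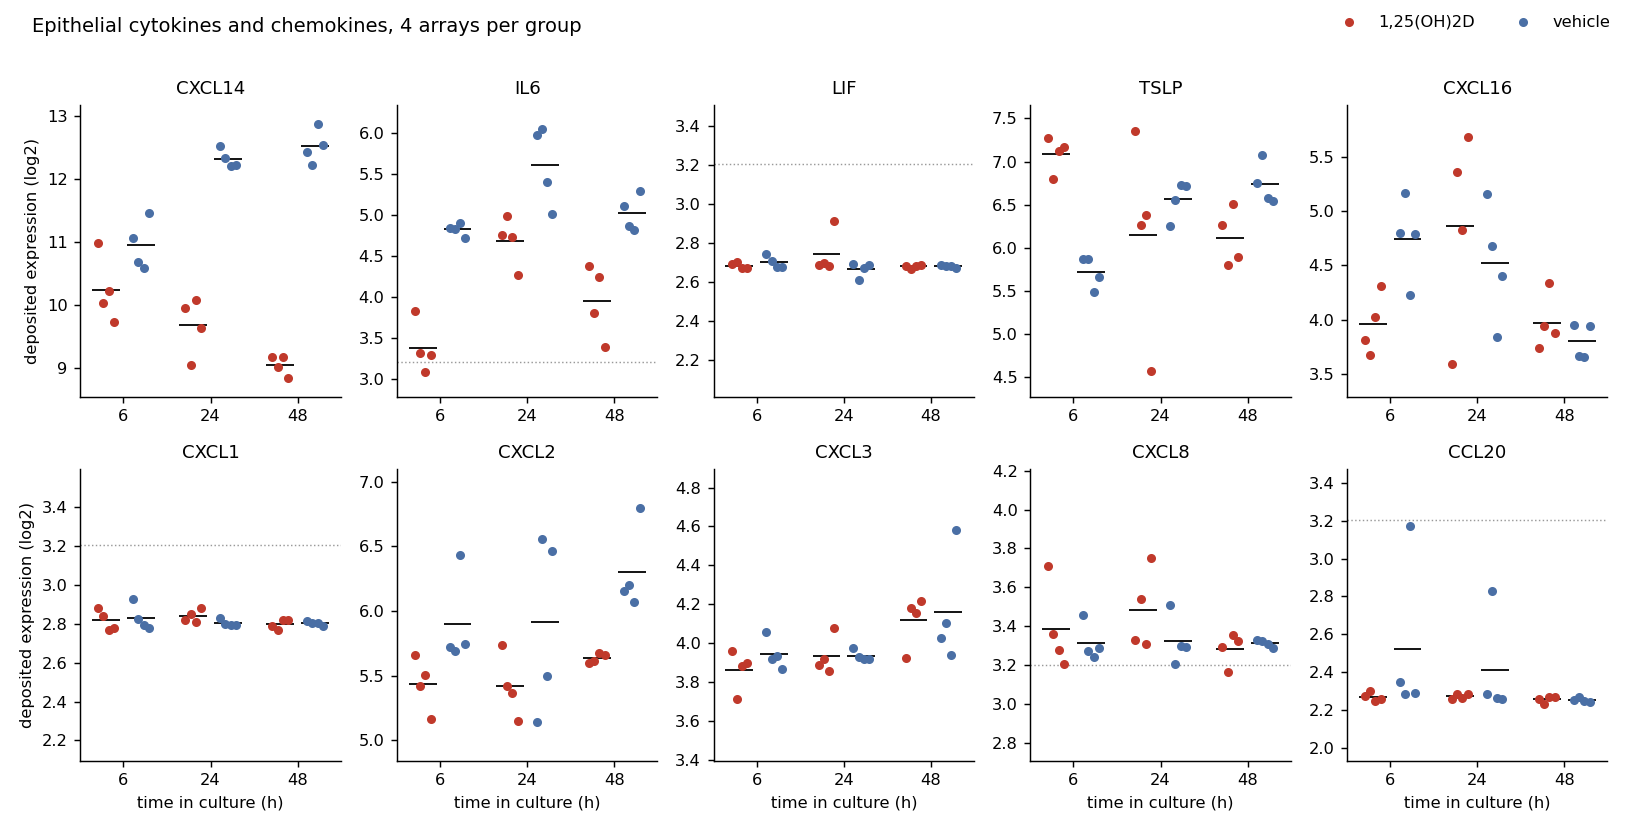
Deposited expression (log2) of the 10 genes by hours in culture, with 1 point per array, 1,25(OH)2D left of vehicle, and bars at the means of 4 arrays. The vertical scale differs between panels and the dotted line is the filter value of 3.20 where it is in reach; the CXCL14 groups part at 24 h and 48 h, while LIF and CXCL1 lie under the line on every array.

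**Figure D2:**
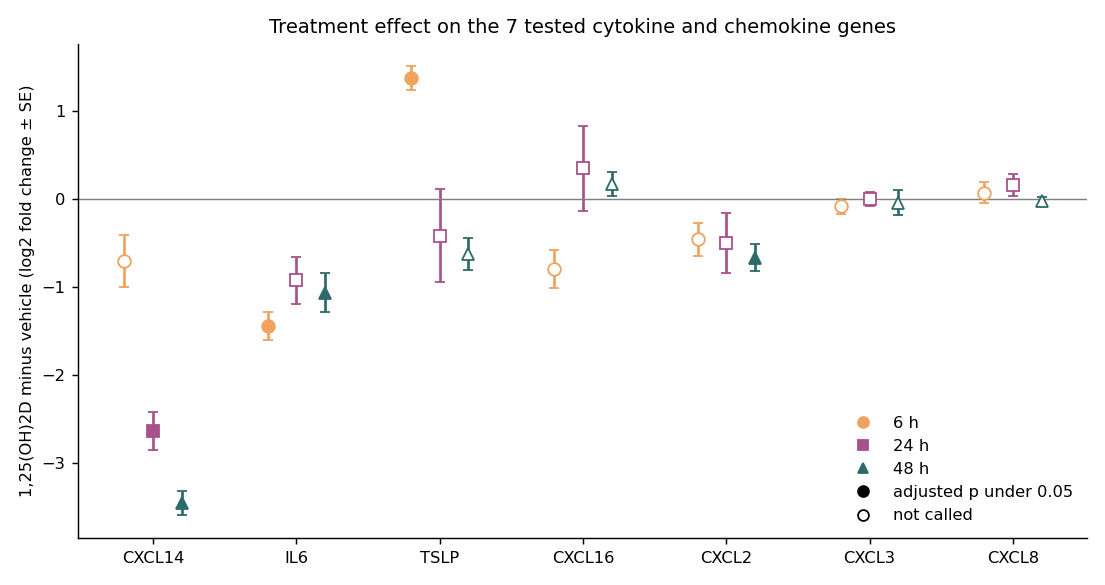
Difference between 1,25(OH)2D and vehicle (log2 fold change, points) with its standard error (bars) for the 7 tested genes at 6, 24 and 48 h. Filled symbols passed an adjusted p of 0.05, which were IL6 and TSLP at 6 h, CXCL14 at 24 h, and CXCL14, IL6 and CXCL2 at 48 h.

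CXCL14 (chr5:135570679-135578991) had the largest change of the 7. With 1,25(OH)2D its level at 48 h was 9.18, 9.03, 9.18 and 8.85 (log2, replicates 1 to 4), against 12.42, 12.22, 12.88 and 12.54 in vehicle. No 1,25(OH)2D array came near a vehicle array. The difference was -3.45 (SE 0.142), which is 10.95-fold lower, with an adjusted p of 9.30e-06.

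At 24 h CXCL14 was at 9.95, 9.06, 10.08 and 9.64 with 1,25(OH)2D, against 12.52, 12.33, 12.20 and 12.23 in vehicle. These groups did not overlap either, and 2 of the 1,25(OH)2D arrays and 1 vehicle array were among those that stood apart. The difference was -2.63 (SE 0.221), or 6.21-fold lower, with an adjusted p of 0.00458, and it was -2.68 with an adjusted p of 0.0144 without those arrays. At 6 h the values were 10.98, 10.03, 10.22 and 9.74 with 1,25(OH)2D, against 11.07, 10.68, 10.59 and 11.45 in vehicle. Here the ranges overlapped, and the difference of -0.71 (SE 0.292) was not called (adjusted p 0.480).

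In vehicle, CXCL14 was higher at the later times. It averaged 12.32 ± 0.14 at 24 h, against 10.95 ± 0.39 at 6 h (SD, n = 4 each), a difference of 1.37 (SE 0.242, adjusted p 0.00106), where 7.82% of all tested probe sets were called between these groups. With 1,25(OH)2D it averaged 9.68 ± 0.45 at 24 h, against 10.24 ± 0.53 at 6 h (SD, n = 4 each), which was not called (-0.56, adjusted p 0.107). The effect of 1,25(OH)2D at 48 h minus that at 6 h was itself called, at -2.75 (SE 0.343, adjusted p 3.83e-05), in a contrast that called 2.80% of all tested probe sets. In order of level the groups ran vehicle 48 h, vehicle 24 h, vehicle 6 h, then 1,25(OH)2D at 6, 24 and 48 h. Of these 5 pairs of neighbours, the values of vehicle 24 h and vehicle 6 h alone did not overlap.

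CXCL14 is read by 3 probe sets, which do not all behave alike. The second tested one gave the same calls, with differences of -0.66 at 6 h (adjusted p 0.567), -2.81 at 24 h (adjusted p 0.00656) and -3.84 at 48 h (adjusted p 8.66e-06). The third stayed between 1.99 and 2.08 on all 24 arrays and was not tested. The brighter tested probe set, whose values are given above, kept its calls at 24 h and 48 h when any 1 array was left out. The adjusted p (limma) was then 0.00949 to 0.0375 at 24 h and 2.52e-05 to 1.32e-04 at 48 h. With the replicate number added to the model as a block, the 24 h call was lost (adjusted p 0.182).

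IL6 (chr7:22727200-22731998) was lower with 1,25(OH)2D at every time. At 6 h it was at 3.83, 3.31, 3.09 and 3.30 with 1,25(OH)2D, against 4.84, 4.82, 4.90 and 4.72 in vehicle. The groups did not overlap, and 1 of the 1,25(OH)2D arrays was under the filter value. The difference was -1.44 (SE 0.155), or 2.72-fold lower, with an adjusted p of 0.00174 and between 0.000491 and 0.0110 when any 1 array was left out. With 32 added to every value on the linear scale, which shrinks differences of faint probe sets, it was -0.50 (adjusted p 0.00191).

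At 24 h IL6 stood at 4.75, 4.99, 4.73 and 4.26 with 1,25(OH)2D, against 5.98, 6.04, 5.40 and 5.01 in vehicle. Every 1,25(OH)2D array was below every vehicle array, but the nearest were close, and the difference of -0.92 (SE 0.265) did not pass (adjusted p 0.353). It did pass when all 24 arrays shared 1 estimate of the spread (adjusted p 0.0377). At 48 h IL6 was at 4.38, 3.80, 4.24 and 3.39 with 1,25(OH)2D, against 5.11, 4.86, 4.82 and 5.29 in vehicle. The groups again did not overlap, with a difference of -1.06 (SE 0.221), or 2.09-fold lower (adjusted p 0.0218). That call was lost without vehicle replicate 1 (adjusted p 0.0568) and without vehicle replicate 4 (adjusted p 0.0640), as well as without a filter on low values (adjusted p 0.0708). With the same offset of 32 the difference was -0.43 and was called.

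IL6 was highest at 24 h in both treatments. With 1,25(OH)2D it was 1.30 higher at 24 h than at 6 h (SE 0.231, adjusted p 5.73e-04), in a contrast that called 16.7% of all tested probe sets. In vehicle it was 0.78 higher at 24 h than at 6 h (SE 0.231, adjusted p 0.0404), and this call was lost when any of 7 of the 8 arrays was left out (adjusted p 0.0537 to 0.141), all but vehicle replicate 4 at 24 h. Neither treatment had a called change between 24 h and 48 h, when 0 of the 7 genes passed in vehicle (0.315% of all tested probe sets called) and 0 with 1,25(OH)2D (1.91% called); at an unadjusted p under 0.05, 3 of 7 passed in each, against 8.22% of all tested probe sets in vehicle and 13.5% with 1,25(OH)2D. The effect of 1,25(OH)2D on IL6 at 48 h minus that at 6 h was 0.38 (SE 0.327) and was not called. All 5 pairs of neighbours in the order of levels overlapped, from vehicle 24 h at the top to 1,25(OH)2D 6 h at the bottom. LIF (chr22:30240453-30246759), the other gp130 cytokine, lay between 2.61 and 2.91 on all arrays, under the filter value, and was not tested.

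TSLP (chr5:111070062-111078026) was the 1 gene of the 7 that rose. At 6 h it was at 7.27, 6.80, 7.12 and 7.17 with 1,25(OH)2D, against 5.87, 5.88, 5.49 and 5.66 in vehicle. The groups were well apart, with a difference of 1.37 (SE 0.135), or 2.58-fold higher, and an adjusted p of 0.00116 that stayed between 0.00162 and 0.00780 when any 1 array was left out.

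At 24 h TSLP was at 7.36, 6.27, 6.38 and 4.58 with 1,25(OH)2D, against 6.26, 6.56, 6.73 and 6.72 in vehicle. The highest and the lowest of these 8 values belong to the 1,25(OH)2D replicates 1 and 4, both among the arrays that stood apart, so that the groups overlapped widely (-0.42, SE 0.528, adjusted p 0.662). Without 1,25(OH)2D replicate 4 the difference was 0.10, without 1,25(OH)2D replicate 1 it was -0.82, and without the 4 arrays that stood apart it was -0.34 (adjusted p 0.0503), none of which was called. At 48 h TSLP was at 6.27, 5.80, 6.51 and 5.89 with 1,25(OH)2D, against 6.76, 7.08, 6.58 and 6.54 in vehicle. All 1,25(OH)2D arrays were below all vehicle arrays by then, though the difference of -0.62 (SE 0.182) was not called (adjusted p 0.0761). It was called when 1,25(OH)2D replicate 3 was left out (adjusted p 0.0467) and with a stricter filter that kept 15000 probe sets (adjusted p 0.0367).

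The estimated effect on TSLP was positive at 6 h and negative at 48 h, though limma did not call the latter. The difference between these effects, -1.99 (SE 0.496), was called (adjusted p 0.0301). That call was lost in 9 of 16 fits that left out 1 array (adjusted p 0.0545 to 0.0744). The arrays were vehicle replicates 3 and 4 and 1,25(OH)2D replicates 1, 3 and 4 at 6 h, and vehicle replicates 1 and 2 and 1,25(OH)2D replicates 2 and 4 at 48 h. Without the 4 arrays that stood apart, it was -2.04 with an adjusted p of 2.81e-05. In vehicle TSLP averaged 5.72 ± 0.18 at 6 h, 6.56 ± 0.22 at 24 h and 6.74 ± 0.24 at 48 h (SD, n = 4 each). The step between 6 h and 24 h in vehicle was 0.84 (adjusted p 0.179), and it was called without the arrays that stood apart (0.99, adjusted p 0.00177). All 5 pairs of neighbours in the order of levels overlapped, from 1,25(OH)2D 6 h at the top to vehicle 6 h at the bottom.

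**Figure D3:**
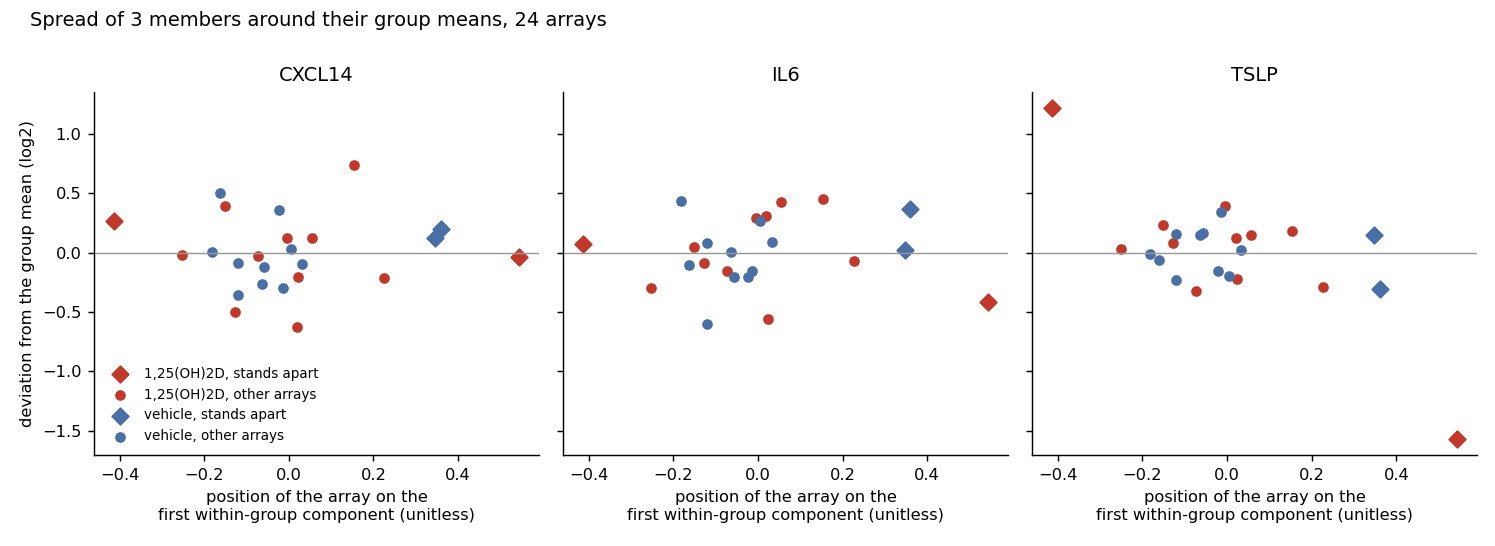
Deviation of each array from its group mean (log2) for CXCL14, IL6 and TSLP, against the position of the array on the first within-group component (unitless), over 24 arrays. Diamonds are the 4 arrays that stood more than 0.3 from their group; the 2 TSLP values farthest from their group mean are the 1,25(OH)2D diamonds of 24 h, while CXCL14 and IL6 show no such slope.

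TSLP was, after CXCL8, the gene whose spread went most with that component. Over the 24 arrays, the correlation of a gene's deviation from its group mean with the position of the array was -0.67 for TSLP and 0.81 for CXCL8, 0.54 for CXCL16 and -0.47 for CXCL2. It was 0.24 for CXCL3, 0.04 for IL6 and 0.02 for CXCL14. These are descriptions over arrays that share the same 6 group means, and the part of the component in the differences was not tested.

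Of the 4 neutrophil chemokines, only CXCL2 (chr4:74097040-74099195) was called. At 48 h it was at 5.60, 5.62, 5.68 and 5.66 with 1,25(OH)2D, against 6.16, 6.20, 6.07 and 6.80 in vehicle. The groups did not overlap, and the 1,25(OH)2D arrays lay very close together (SD 0.04, against 0.33 in vehicle). The difference was -0.67 (SE 0.150), or 1.59-fold lower, with an adjusted p of 0.0302. It was lost without vehicle replicate 2 or any 1 of the 4 1,25(OH)2D arrays (adjusted p 0.0515 to 0.0738) and when all 24 arrays shared 1 estimate of the spread (adjusted p 0.220). It was also lost without a filter (adjusted p 0.0904) and with the offset of 32 (adjusted p 0.0545).

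CXCL2 was also lower with 1,25(OH)2D at 6 h, by -0.46, and at 24 h, by -0.50, but neither was called. At 6 h the values were 5.66, 5.42, 5.50 and 5.16 with 1,25(OH)2D, against 5.72, 5.69, 6.43 and 5.74 in vehicle, and at 24 h 5.74, 5.42, 5.37 and 5.15 against 5.14, 6.56, 5.49 and 6.47. At 6 h the ranges did not overlap and at 24 h they did. The CXCL2 probe set used here carries the suffix that Affymetrix gives to sets with probes that can also pair with other transcripts, and CXCL1, CXCL2 and CXCL3 are near-identical neighbours, so the share of each gene in this signal cannot be told apart. The 2 other CXCL2 probe sets, between 2.72 and 3.39, were not tested.

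CXCL3 (chr4:74036589-74038689) lay between 3.71 and 4.58 on the 24 arrays, and its differences of -0.08, -0.0009 and -0.04 at 6, 24 and 48 h were within their standard errors of 0.087, 0.075 and 0.141. CXCL8 (chr4:73740569-73743716), whose tested probe set lay between 3.17 and 3.75, differed by 0.07, 0.16 and -0.03, with standard errors of 0.124, 0.123 and 0.050. Both lay close to the filter value. The second CXCL8 probe set, between 2.40 and 2.57, and CXCL1 (chr4:73869393-73871308), between 2.77 and 2.92, were below it on every array.

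CXCL16 (chr17:4733533-4739928) was at 3.82, 3.67, 4.02 and 4.31 with 1,25(OH)2D at 6 h, against 4.80, 5.17, 4.22 and 4.79 in vehicle. One vehicle array fell within the 1,25(OH)2D range, and the difference of -0.79 (SE 0.216) was not called by limma (adjusted p 0.146), though SAM called it. At 24 h it was at 3.59, 5.36, 4.83 and 5.68 with 1,25(OH)2D, against 5.16, 4.67, 3.84 and 4.40 in vehicle, a spread too wide to part the groups (0.35, SE 0.481). At 48 h it averaged 3.97 ± 0.26 with 1,25(OH)2D and 3.80 ± 0.16 in vehicle (SD, n = 4 each). With 1,25(OH)2D it was 0.91 higher at 24 h than at 6 h, which was not called (adjusted p 0.0644), but was without the arrays that stood apart (1.14, adjusted p 0.00584) and without 1,25(OH)2D replicate 1 at 24 h alone (1.33, adjusted p 0.00147). The step between 24 h and 48 h with 1,25(OH)2D, -0.89 (adjusted p 0.230), was likewise called without that array (-1.32, adjusted p 0.00631).

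CCL20 (chr2:227813842-227817556) did not reach the filter value. It lay between 2.23 and 2.35 on all arrays but 2, vehicle replicate 3 at 6 h with 3.17 and vehicle replicate 2 at 24 h with 2.83. The first of these arrays also held the highest CXCL2 value of its group, and the second the highest CXCL2 value at 24 h.

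Of 12 listed receptors and processing enzymes of these ligands, 7 were tested. Over all tested probe sets, 2.69%, 0.354% and 9.63% were called at 6, 24 and 48 h. IL6R, the specific chain of the IL6 receptor, rose at 6 h (8.22 ± 0.14 with 1,25(OH)2D, 7.32 ± 0.12 in vehicle, SD, n = 4 each), a difference of 0.90 (SE 0.103, adjusted p 0.00253). The other 6 were not called then, and 0 of 7 were called at 24 h. At 48 h 2 fell: IL6ST, the shared gp130 chain, by 0.51 (9.21 ± 0.23 with 1,25(OH)2D, 9.72 ± 0.15 in vehicle, SD, n = 4 each, adjusted p 0.0395), and ADAM10 by 0.26 (10.85 ± 0.07 with 1,25(OH)2D, 11.11 ± 0.11 in vehicle, SD, n = 4 each, adjusted p 0.0474). The call of IL6ST was lost in 7 of 8 fits without 1 array (adjusted p 0.0524 to 0.104), all but that without 1,25(OH)2D replicate 2, and that of ADAM10 in 6 of 8 (adjusted p 0.0893 to 0.126), all but those without vehicle replicate 1 or 1,25(OH)2D replicate 2. Neither fall was called in 1 fit of all arrays, without a filter, with a second quantile normalization or with the replicate block. The TSLP receptor genes CRLF2 and IL7R did not reach the filter value. Over 6, 24 and 48 h the list's median differences were 0.03, -0.55 and -0.12, against -0.03, 0.01 and -0.01 over all tested genes.

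Of 26 other cytokines and chemokines that an epithelium can make, 24 had a probe set of their own and 8 were tested. CCL2, which draws monocytes, was the 1 that was called, at 24 h and 48 h, where 0.354% and 9.63% of all tested probe sets were. At 6 h its mean was 2.60 ± 0.10 with 1,25(OH)2D, against 2.70 ± 0.11 in vehicle. At 24 h it was 2.67 ± 0.10 with the hormone, against 5.31 ± 0.37 in vehicle, and at 48 h 2.54 ± 0.07 with the hormone, against 5.70 ± 0.43 in vehicle (SD, n = 4 each). It thus passed the filter only through the vehicle arrays of 24 h and 48 h, and stayed under it with 1,25(OH)2D at every time. Set against the filter value in place of the fainter 1,25(OH)2D values, CCL2 was at least 4.31-fold lower with 1,25(OH)2D at 24 h and at least 5.63-fold lower at 48 h. A gene that enters the test only through the vehicle groups where it is high favours a fall with 1,25(OH)2D. Its limma calls are therefore a description, and their p-values are not given here. At 6 h limma called 0 of the 8 and 2.69% of all tested probe sets. By SAM, which called 6.37% of all tested probe sets then, 1 of the 8 rose. These counts do not set the list apart from those shares. The median differences of this list at the 3 times were -0.003, 0.01 and -0.05.

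Of 25 listed regulators of NF-kB, MAP kinase and STAT3 signalling, 22 were tested, and 5 rose and 0 fell at 6 h. Of all tested probe sets 1.91% rose and 0.781% fell then. DUSP10, a phosphatase that switches off p38 and JNK, rose by 3.28 (SE 0.165, adjusted p 3.36e-05), with 8.80 ± 0.16 with 1,25(OH)2D and 5.52 ± 0.31 in vehicle (SD, n = 4 each). ZFP36, which binds AU-rich cytokine mRNAs and speeds their decay, rose by 1.75 (SE 0.082, adjusted p 2.48e-05). The other 3 were NFKBIA, the inhibitor that holds NF-kB in the cytoplasm, with 1.44 (adjusted p 5.82e-04), CEBPB, a transcription factor that activates IL6, with 1.11 (adjusted p 1.70e-04), and the phosphatase DUSP1 with 0.75 (adjusted p 0.00317), which was not called when each array was centred on its median (adjusted p 0.0572). By SAM, 2 also fell. SAM called 6.37% of all tested probe sets at 6 h, and 662 of these 1655 calls were falls. RELB and TNFAIP3, named here after their values were seen, were at -0.69 (adjusted p 0.194) and -0.88 (adjusted p 0.743) and were not called by limma.

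At 24 h, where 0.354% of all tested probe sets were called, 1 of the 22 was called, DUSP10 at 1.15 (adjusted p 0.0334). At 48 h, where 9.63% of all tested probe sets were called, 2 of the 22 rose, DUSP10 at 0.84 (adjusted p 0.0302) and ZFP36 at 0.46 (adjusted p 0.00913). Limma called 0 falls at either time, while SAM called 2 falls at 24 h and 2 at 48 h. Over all tested probe sets SAM called 5.79% at 24 h, with 650 falls among 1506 calls. At 48 h it called 13.7%, with 2210 falls among 3569 calls. At 48 h 2 falls were also called by limma with the stricter filter, with each array centred on its median and with the probe sets of a gene averaged. The call of DUSP10 was lost in 7 of 8 fits without 1 array at 24 h, all but that without vehicle replicate 3 (adjusted p 0.0659 to 0.156), and in 5 of 8 at 48 h, all but those without vehicle replicates 3 or 4 or 1,25(OH)2D replicate 4 (adjusted p 0.0544 to 0.0776). For all 5 genes called at 6 h, the effect was lower at 48 h. The change was -2.44 for DUSP10, -1.29 for ZFP36, -1.43 for NFKBIA, -0.96 for CEBPB and -0.83 for DUSP1. These genes were picked by their rise at 6 h, which in itself favours a lower value later. Their p-values for this change are therefore not given. Limma called these 5 lower and did not call the other 17, while 1.77% of all tested probe sets were called lower. The list's median difference, near 0 at each time (-0.05, -0.06 and -0.04 at 6, 24 and 48 h), did not show these rises.

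**Figure D4:**
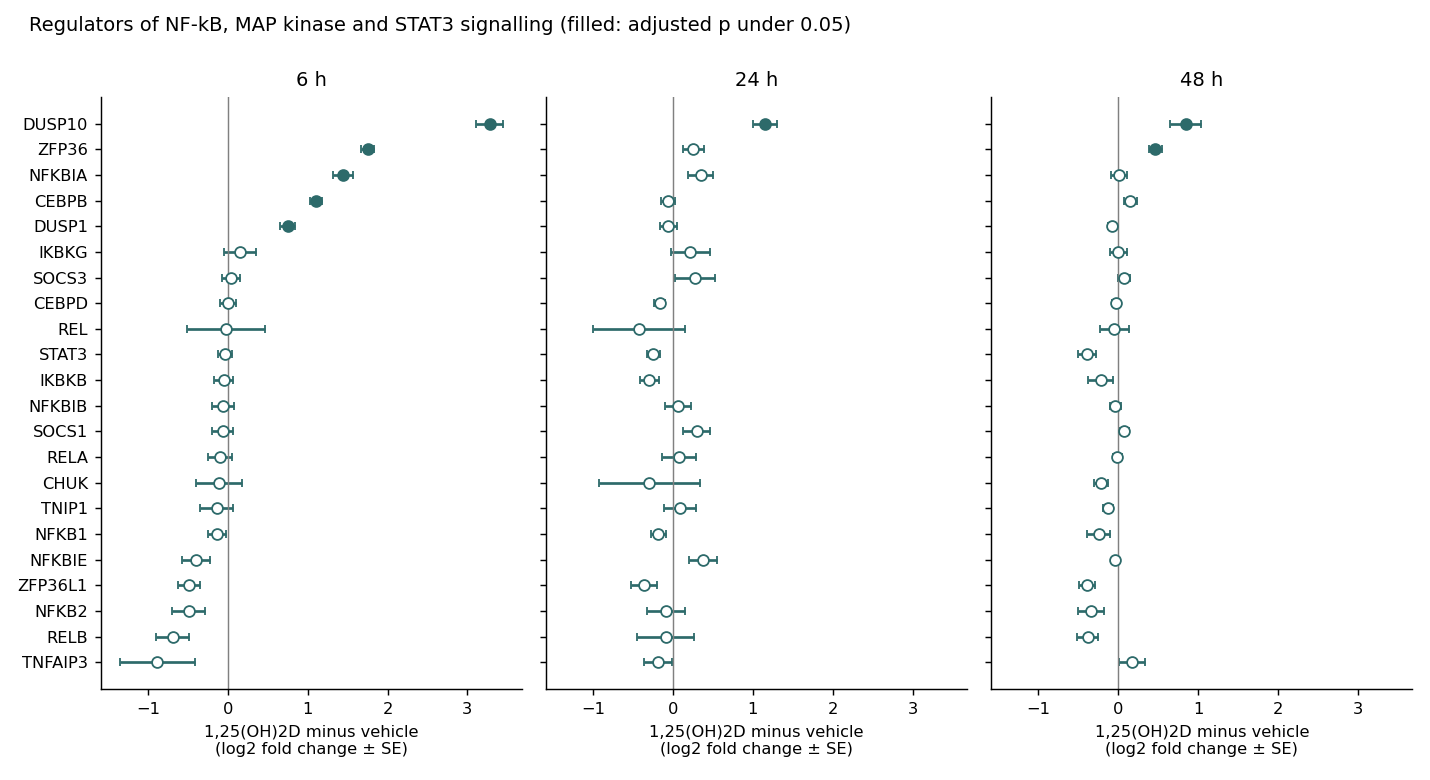
Difference between 1,25(OH)2D and vehicle (log2 fold change, points) with its standard error (bars) for the 22 tested regulators at 6, 24 and 48 h, ordered by their value at 6 h. Filled points passed an adjusted p of 0.05: 5 at 6 h, 1 at 24 h and 2 at 48 h, all to the right of 0.

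Few markers of other cells reached the filter value and could be tested. Of these, 1 of 2 fibroblast and 1 of 2 endothelial markers fell at 48 h. Of the leukocyte markers 0 of 2 were called then, and of the luminal markers 0 of 1. Over all tested probe sets 9.63% were called at 48 h, and 7.82% between 6 h and 24 h in vehicle. Of 6 fibroblast markers 2 were tested, and COL1A1, which RWPE1 expressed in all groups, fell by 0.60 at 48 h (9.58 ± 0.10 with 1,25(OH)2D, 10.18 ± 0.22 in vehicle, SD, n = 4 each, adjusted p 0.0136). The summed log2 level of the 6 lay between 24.41 and 24.96 with 1,25(OH)2D and between 25.00 and 25.71 in vehicle at 48 h. Of 4 endothelial markers 2 were tested, and KDR fell by 1.58 at 48 h (adjusted p 0.0313), in sums of the 4 between 12.65 and 13.39 with 1,25(OH)2D and between 13.05 and 14.90 in vehicle, while VWF and CDH5 were under the filter value. Between 6 h and 24 h in vehicle, when CXCL14 was called higher, KDR was 1.60 higher at 24 h (adjusted p 0.00167) and so was 1 of the 7 tested epithelial markers, KRT19, by 1.05 (adjusted p 0.00726). The KDR call at 48 h was lost in 6 of 8 fits without 1 array (adjusted p 0.0578 to 0.0821), all but those without vehicle replicate 4 or 1,25(OH)2D replicate 2. Of the 7 epithelial markers tested, 0 were called at any of the 3 times by limma. The part of other cells in the results was not tested.

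The genes did not share 1 pattern over the 24 arrays. As a description, Pearson's r between 2 of the tested genes ran from -0.62, for TSLP and CXCL16, to 0.67, for IL6 and CXCL14, and was 0.55 for CXCL14 and CXCL2. Such values take in the group differences as well as shared arrays. The genes most like CXCL14 over the 24 arrays were PLSCR1 (r = 0.91), OAS2 (r = 0.90) and PARP9 (r = 0.89), all 3 known as interferon-induced genes. Once the group means were removed, these values were 0.16, 0.16 and 0.15, so that the likeness lay in the group means. Those most like IL6 were CCN1 and PHLDA1 (r = 0.88 each) and CITED2 (r = 0.85), with 0.32, 0.41 and 0.09 once the group means were removed. Those most like TSLP were NCOA7 (r = 0.79), KNSTRN and SCAMP1 (r = 0.78 each), where the values without the group means were 0.86, 0.65 and 0.88. For CXCL8 the nearest were LINC03048 (r = 0.92), CPN2 (r = 0.91) and ZBTB45 (r = 0.88), with 0.93, 0.92 and 0.86 without the group means. The nearest to CXCL2 were FILIP1L (r = 0.79), IFI16 (r = 0.72) and HYLS1 (r = 0.71), with 0.65, 0.54 and 0.64 without the group means. Those for CXCL3 were DENND3 (r = 0.76), PTP4A3 (r = 0.74) and C5AR1 (r = 0.73), with 0.68, 0.61 and 0.61 without the group means. Those for CXCL16 were SCARF2 (r = 0.82), SNX12 and PPRC1 (r = 0.79 each), with 0.72, 0.67 and 0.63 without the group means.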

How the data were processed

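RNA from 24 cultures was measured on Affymetrix whole-genome arrays. The authors corrected the background and normalized all arrays together with GCRMA, whose version is not given in the sources used here, and the deposited values are log2 expression levels. They hold no detection calls and have no read depth, and such a background correction sets a floor, so differences of faint probe sets are compressed. Control probe sets (62) were dropped. The remaining 54613 were ranked by the best level that 3 arrays of any group attained, and the top 26000 were tested, a stand-in for the authors' detection filter. The brightest tested probe set stands for a gene. The 8 arrays of each time were compared with limma 3.58.1 (R 4.3.3), with Benjamini-Hochberg adjustment over all tested probe sets. Contrasts across times used all 24 arrays. Tables were made with Python 3.11.15. The limma step was tested on simulated data, and SAM was re-implemented with all 70 relabellings. Genes were named by a rule: all 10 members, up to 2 called rises and falls of each list and time and the 3 genes most correlated with each member. NFKBIA, CEBPB, DUSP1, RELB and TNFAIP3 fall outside it and were chosen after their values were seen. The members and lists were chosen with earlier results of these data known. Alternatives were other filters, normalizations, an offset, limma's trend and robust options, SAM, 1 fit of all arrays, a replicate block, each array left out, and, chosen after the data were seen, leaving out 4 arrays and array weights.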

Additional observations from a re-analysis of the deposited data

Results flagged for a closer look

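In 5 of 60 groups of 4 arrays (10 genes in 6 groups) the highest value lay apart from the other 3 for the range of its group. The measure was Dixon's ratio of the gap to the whole range, against its critical value for 4 samples. Chance would flag about 1 group in 20 if values were normally spread, which was not tested. Of the flagged genes CCL20, LIF and CXCL1 lie under the filter value on every array, so their gaps are between faint values. For CCL20 the ratio was 0.925 in vehicle at 6 h, where replicate 3 was at 3.17 and the next array at 2.35, and 0.954 in vehicle at 24 h, where replicate 2 was at 2.83 and the next at 2.28. For CXCL2 it was 0.924 in vehicle at 6 h, where replicate 3 was at 6.43 and the next at 5.74. For LIF it was 0.937 in 1,25(OH)2D at 24 h, where replicate 4 was at 2.91 and the next at 2.70, and for CXCL1 it was 0.831 in vehicle at 24 h, where replicate 1 was at 2.83 and the next at 2.80.

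The effect of 1,25(OH)2D differed between times for 2 genes by a test of the difference itself. For TSLP the effects at 48 h and 6 h differed by -1.99 (log2, limma, adjusted p 0.0301), with a rise at 6 h and a value of -0.62 at 48 h that was not called. For CXCL14 it was -2.75 (adjusted p 3.83e-05), with a fall at 48 h and a value of -0.71 at 6 h that was not called.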

How the results depend on the processing

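Counts below are of the 10 genes. At 6 h the 2 calls became 1 with the stricter filter, which left IL6 untested. At 24 h the 1 call became 2 with all 24 arrays in one fit, 2 with SAM, 2 with array weights and 0 with the replicate block, where 1 probe set was called in all. At 48 h the 3 calls became 1 without a filter, 1 with the block, 2 in one fit and 2 with an offset of 32 (CXCL2 lost), 2 with the stricter filter (CXCL14 and TSLP) and 4 with SAM. For the difference of the effects at 48 h and 6 h, 2 became 1 without a filter. For vehicle at 24 h minus 6 h, 2 became 1 without a filter, with the stricter filter, with a second quantile normalization and with centring on medians. For 1,25(OH)2D at 24 h minus 6 h, 1 became 0 with the stricter filter, 3 without the 4 arrays that stood apart and 4 with array weights. At 48 h minus 24 h, 0 became 2 in vehicle with array weights, and with 1,25(OH)2D 1 without the 4 arrays and 4 with weights. Leaving out 1 array gave 2 calls at 6 h, 1 at 24 h and 2 to 3 at 48 h, 1 to 2 for the difference of effects and for vehicle at 24 h minus 6 h, 1 to 3 for 1,25(OH)2D at 24 h minus 6 h, and 0 to 1 at 48 h minus 24 h. Over all tested probe sets, 92 were called at 24 h, against 554 in one fit of all arrays, 49 with centring, 5497 without the 4 arrays, 8707 with weights and 1506 with SAM. At 6 h 699 were called, against 1082 in one fit, 456 with a gene's probe sets averaged, 1765 with weights and 1655 with SAM, and at 48 h 2505, against 975 in one fit, 1644 without a filter, 1353 with the block and 4205 with weights. For the difference of effects 727 were called, against 466 with centring, 1417 without the 4 arrays and 2841 with weights. Between times, the counts with weights were 7237 against 2033 and 8449 against 82 in vehicle, and 8106 against 4345 and 12984 against 496 with 1,25(OH)2D; without the 4 arrays they were 755 against 82, 6579 against 4345 and 1408 against 496. The cause of these shifts was not tested.

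Signs turned for small differences that were not called. CXCL3 at 24 h was 0.0437 with a second quantile normalization, 0.165 with centring and 0.0002 with an offset of 32. With 1 array left out, it ran between -0.0492 and 0.0259 at 24 h and between -0.119 and 0.0944 at 48 h. CXCL8 ran between -0.0355 and 0.132 at 6 h and between -0.0499 and 0.0133 at 48 h, where it was 0.01 with centring and 0.0179 with weights. TSLP at 24 h ran between -0.823 and 0.10, reached without 1,25(OH)2D replicate 4. For 1,25(OH)2D at 24 h minus 6 h, CXCL8 was -0.19 with weights (adjusted p 0.0271), against 0.09.

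Same-numbered arrays showed no steady likeness at 24 h or 48 h, while the picture at 6 h was mixed. Within groups 71.9% of the variance lay on 1 component, and most arrays that stood apart on it were of 24 h. The check therefore cannot tell whether same-numbered cultures were started together. Deviations of same-numbered arrays correlated above 0.1 in 4 of 12 pairs (-0.89 to 0.76). Of these pairs, those of 6 h had 0.76, -0.37, 0.59 and 0.67 for numbers 1 to 4, those of 24 h -0.89, -0.17, 0.35 and -0.72. Those of 48 h ran from -0.12 to -0.0089. Only 2 of 12 treated arrays were most like their own number, both from 6 h. The block gave 824 called probe sets at 6 h, against 699 without it. With the replicate block the calls lost among the 10 genes at the 3 times were CXCL14 at 24 h (adjusted p 0.182), IL6 at 48 h (0.0690) and CXCL2 at 48 h (0.0581), and among the other named genes CCL2, DUSP10 and CYP24A1 at 24 h (0.181, 0.517 and 0.182) and IL6ST, ADAM10, DUSP10 and KDR at 48 h (0.134, 0.0734, 0.0784 and 0.0628). The number of arrays limits the precision, and faint probe sets lie near the floor of the correction.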
